A study of Mus musculus with 6 samples.

Results

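The heat shock proteins and DnaJ chaperones were followed as a group of 71 genes in RNA attached to tagged ribosomes of mice injected with lipopolysaccharide (LPS) or with saline. The group holds the transcript clusters of the authors' deposited comparison table whose gene symbol starts as those of HSP70, HSP90, HSP110, small heat shock protein or DNAJ genes do, or is Hspe1. These were 81 of the 34472 clusters tested. For the 9 genes with more than 1 cluster, the one with the greatest average log2 signal across the 6 arrays stands for the gene. Hspd1, the other chaperonin gene of mitochondria, was not analysed here. The rule reads symbols and no measured value.

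The LPS group was 3 Affymetrix mouse gene arrays (MoGene-2_0-st) from mice studied 24 h after 5 mg/kg of LPS, a bacterial endotoxin. The saline group was 3 arrays from mice given saline over the same time. In all mice, saline controls included, the CD11b promoter (a promoter of myeloid cells) drove RPL10a, a ribosomal protein, fused to Flag and EGFP. The mice were 2 to 3 months old, with both sexes in equal numbers. Ribosomes were pulled down by the tag (translating ribosome affinity purification, TRAP), and each array came from a pool of 5 mice, so the spread below is between pools. The labels name no tissue.

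Chaperones bind unfolded stretches of other proteins and let them fold, cross membranes or be degraded. HSP70 proteins clamp onto such stretches by using ATP, DNAJ proteins (also called HSP40) bring the client and start ATP hydrolysis, and HSP110 proteins exchange the nucleotide so that the client is let go. HSP90 finishes kinases and steroid receptors, the chaperonin of mitochondria encloses small proteins, and small heat shock proteins hold unfolded clients without ATP. Heat shock factor 1 (HSF1) switches on the stress-inducible members through heat shock elements, and the unfolded protein response switches on those of the endoplasmic reticulum (ER) through ER stress elements. Macrophages and microglia use these proteins in making cytokines and in antigen handling.

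Median log2 signals over the clusters tested were 5.17, 5.19 and 5.42 in LPS 1 to 3 and 5.17, 5.15 and 5.35 in saline 1 to 3, and the first principal component set both arrays numbered 3 apart from the other 4. Results are therefore also given without these arrays where that matters. Markers of several cell types gave signal. Mean log2 signals over 8 neuron markers ran from 11.04 to 11.14 in LPS arrays and from 11.06 to 11.16 in saline arrays, and over 8 microglia markers from 6.77 to 7.11 in LPS arrays and from 6.96 to 7.21 in saline arrays. Genes that mark cells other than those in which the CD11b promoter is known to work thus gave signal on every array. Fewer cells of a type and less RNA per cell cannot be told apart in such samples.

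No chaperone gene passed the test between LPS and saline. The adjusted p of every one of the 71 genes rounded to 1 (limma, Benjamini-Hochberg adjustment over 34472 clusters), where 1 cluster, or 0.0029% of those tested, passed. With the replicate number as a block 3 clusters passed (0.0087%), none of them a chaperone cluster. Under that block an unadjusted p under 0.05 was found for 1 higher chaperone gene (1.41%, against 3.32% of all clusters) and 3 lower ones (4.23%, against 2.52%). The median difference over the 71 genes, LPS minus saline, was -0.016 on the log2 scale, against -0.002 over all clusters tested, with 31 genes positive and 40 negative. At an unadjusted p under 0.05 there were 0 higher genes, against 1.49% of all clusters, and 1 lower gene (1.41% of the genes), against 0.772% of all clusters. Arrays of the groups did not overlap in 2 genes in the higher direction (2.82%, against 3.61% of all clusters) and in 2 in the lower direction (2.82%, against 3.1%). Each of these shares rests on 0 to 3 of the 71 genes, too few to tell it from the share over all clusters. In the lower direction the share lay above that of all clusters by unadjusted p and below it by groups that did not overlap.

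How large a difference the arrays would have left unseen can be read from the intervals. For 37 of the 71 genes (52.1%) the 95% interval of the difference lay within 1.5-fold either way, against 50.9% of all clusters. A narrow interval was that of Hsp90ab1, the constitutive cytosolic HSP90. It gave 10.75, 10.77 and 10.65 in LPS 1 to 3 and 10.76, 10.73 and 10.65 in saline 1 to 3, a difference of 0.007 ± 0.142 (SE) with a 95% interval from -0.32 to 0.33. A wide one was that of Hspb6, from -0.006 to 1.60. A gene that did not pass is thus bounded only as tightly as its own interval.

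**Figure D1:**
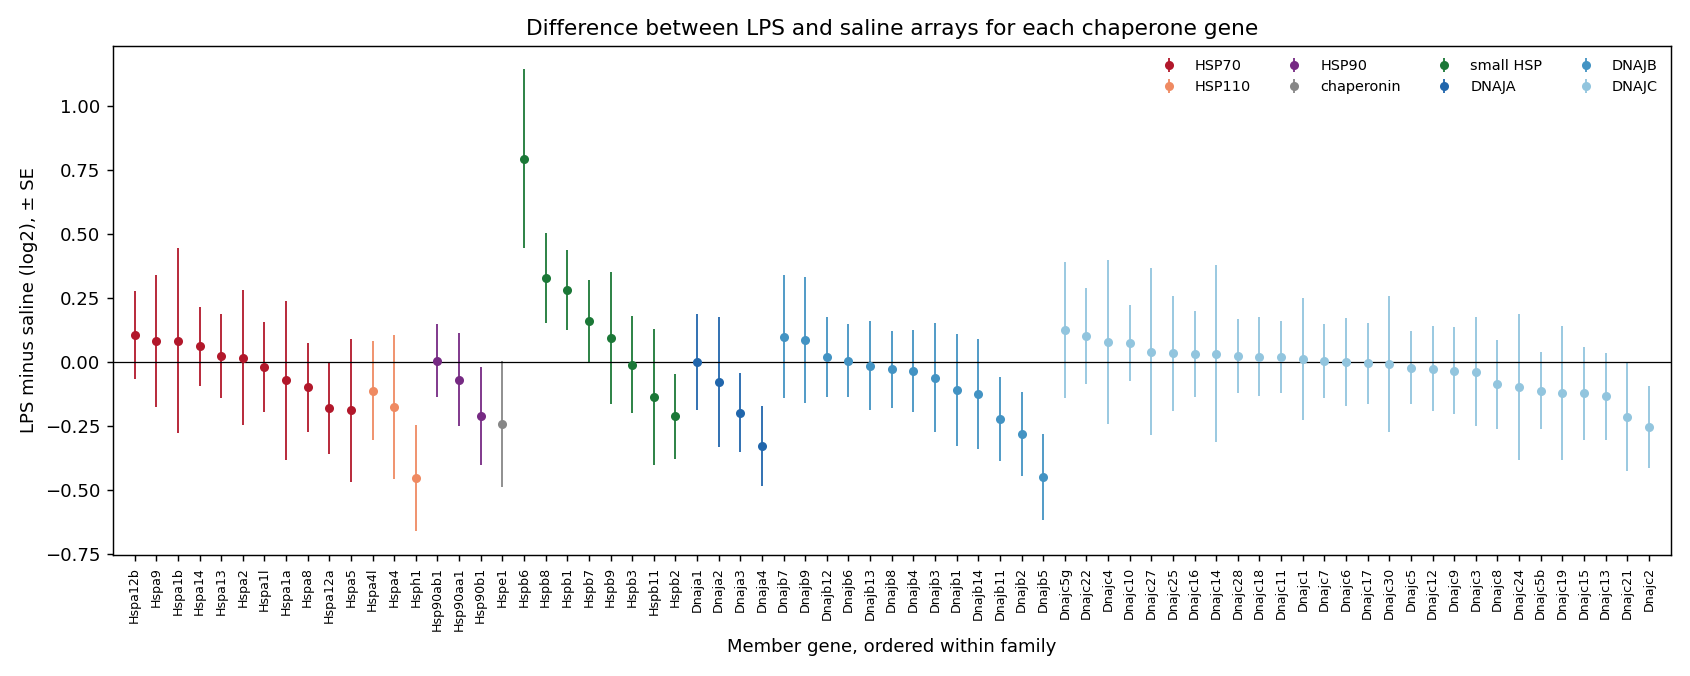
Difference between LPS and saline in log2 units (vertical axis) for each of the 71 chaperone genes (horizontal axis), ordered within family, with limma's standard error as bars and colour for the family. Most points lie close to 0, Hspb6 stands highest at 0.80, and Hsph1 and Dnajb5 stand lowest at -0.45.

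The small heat shock proteins held the greatest positive differences. Of their 8 genes in the group, 5 were positive and 3 negative, with a median of 0.13. The alpha crystallins Cryab and Cryaa, small heat shock proteins outside the symbol rule, are not counted here. They differed by -0.397 ± 0.376 and 0.025 ± 0.186 (SE). Under the alternatives run the median of the 8 genes ranged from 0.08 to 0.33. It was 0.08 without LPS 2, and 0.09 with quantile normalization repeated or with arrays centred on their medians. It was 0.25 without both arrays numbered 3. The 0.33 was over genes with a mean log2 signal of at least 6, which leaves only Hspb6, Hspb8 and Hspb11. Hspb6, the HSP20 of smooth and heart muscle that is also made in brain, gave log2 signals of 7.36, 7.79 and 8.58 in LPS 1 to 3, against 6.82, 6.82 and 7.70 in saline 1 to 3. LPS 1 lay below saline 3, so the groups overlapped, although each LPS array lay above the saline array of its number, by 0.54, 0.97 and 0.88. Hspb6 averaged 7.91 ± 0.62 after LPS and 7.11 ± 0.51 after saline (SD, n = 3 each), and the limma difference was 0.80 ± 0.35 (SE), or 1.74-fold (unadjusted p = 0.0515). With the replicate number as a block its standard error was 0.14 and its unadjusted p 0.000803, and it still did not pass (limma adjusted p = 0.311). A second Hspb6 cluster, whose description also names a further transcript, differed by -0.06 ± 0.18 (SE), and the mean of both clusters by 0.37, so the clusters of Hspb6 disagree. The difference was 0.46 without LPS 3.

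Hspb8, which works with the co-chaperone BAG3 to send clients to autophagy, gave 7.37, 7.50 and 7.78 in LPS 1 to 3 and 7.30, 7.03 and 7.33 in saline 1 to 3. Every LPS array lay above every saline array, with LPS 1 close to saline 3. Its difference was 0.33 ± 0.18 (SE), with a mean of 7.55 ± 0.21 after LPS and 7.22 ± 0.17 after saline (SD, n = 3 each). Hspb1, the small heat shock protein that caps actin filaments, gave 5.83, 5.81 and 5.67 in LPS 1 to 3, against 5.65, 5.48 and 5.33 in saline 1 to 3. These groups did not overlap either, and the difference was 0.28 ± 0.16 (SE) at a low signal. The unadjusted p was 0.0938 for Hspb8 and 0.107 for Hspb1, and neither passed.

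The other 5 small heat shock proteins of the group were mixed. Hspb7, named for its heart expression, differed by 0.16 ± 0.16 (SE) and Hspb9, known from testis, by 0.10 ± 0.26. Hspb3, a muscle member, differed by -0.01 ± 0.19, and Hspb11, also known as a subunit of the transport machinery of cilia, by -0.14 ± 0.27. Hspb2, another muscle member, gave 5.50, 5.27 and 5.52 in LPS arrays and 5.77, 5.43 and 5.72 in saline arrays, with a difference of -0.21 ± 0.17 (SE). It was the lowest of the family, and its groups overlapped because LPS 1 and LPS 3 lay above saline 2.

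Markers of other cell types differed in both directions. Of 7 astrocyte markers 6 were positive, with list means from 8.80 to 8.95 in LPS arrays and from 8.47 to 8.71 in saline arrays. Of 6 endothelial markers 4 were positive, with list means from 5.59 to 6.02 in LPS arrays and from 5.49 to 5.69 in saline arrays. Of 7 neutrophil markers 6 were positive, with list means from 4.25 to 4.78 in LPS arrays and from 3.86 to 4.24 in saline arrays. These neutrophil means lay below the median of all clusters tested on every array. Lists that lay mostly lower after LPS were microglia (6 of 8 negative), neuron (5 of 8), oligodendrocyte (4 of 6) and spleen and lymphocyte (4 of 4). Over all clusters 50.4% were negative, and 57.2% of those with a mean log2 signal of at least 6. P2ry12, a receptor of resting microglia, averaged 6.15 ± 0.54 after LPS and 7.39 ± 0.55 after saline (SD, n = 3 each), with no overlap of the groups. C1qa, also on the microglia list, went the other way without overlap, at 7.50 ± 0.05 after LPS and 6.97 ± 0.26 after saline. So did Itgam, the CD11b gene, at 7.07 ± 0.07 after LPS and 6.72 ± 0.23 after saline. On the microglia list 2 genes were thus apart in the higher direction and 1 in the lower. The endothelial list means of LPS and saline overlapped, as did those of microglia. No marker of these lists was at 0, since the arrays give a background signal to every cluster. Gfap, the astrocyte filament, gave 9.23, 9.77 and 10.35 in LPS arrays, against 8.41, 8.58 and 8.81 in saline arrays. None of these markers passed the limma test over all clusters. Their part in the small heat shock protein values was not tested.

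**Figure D2:**
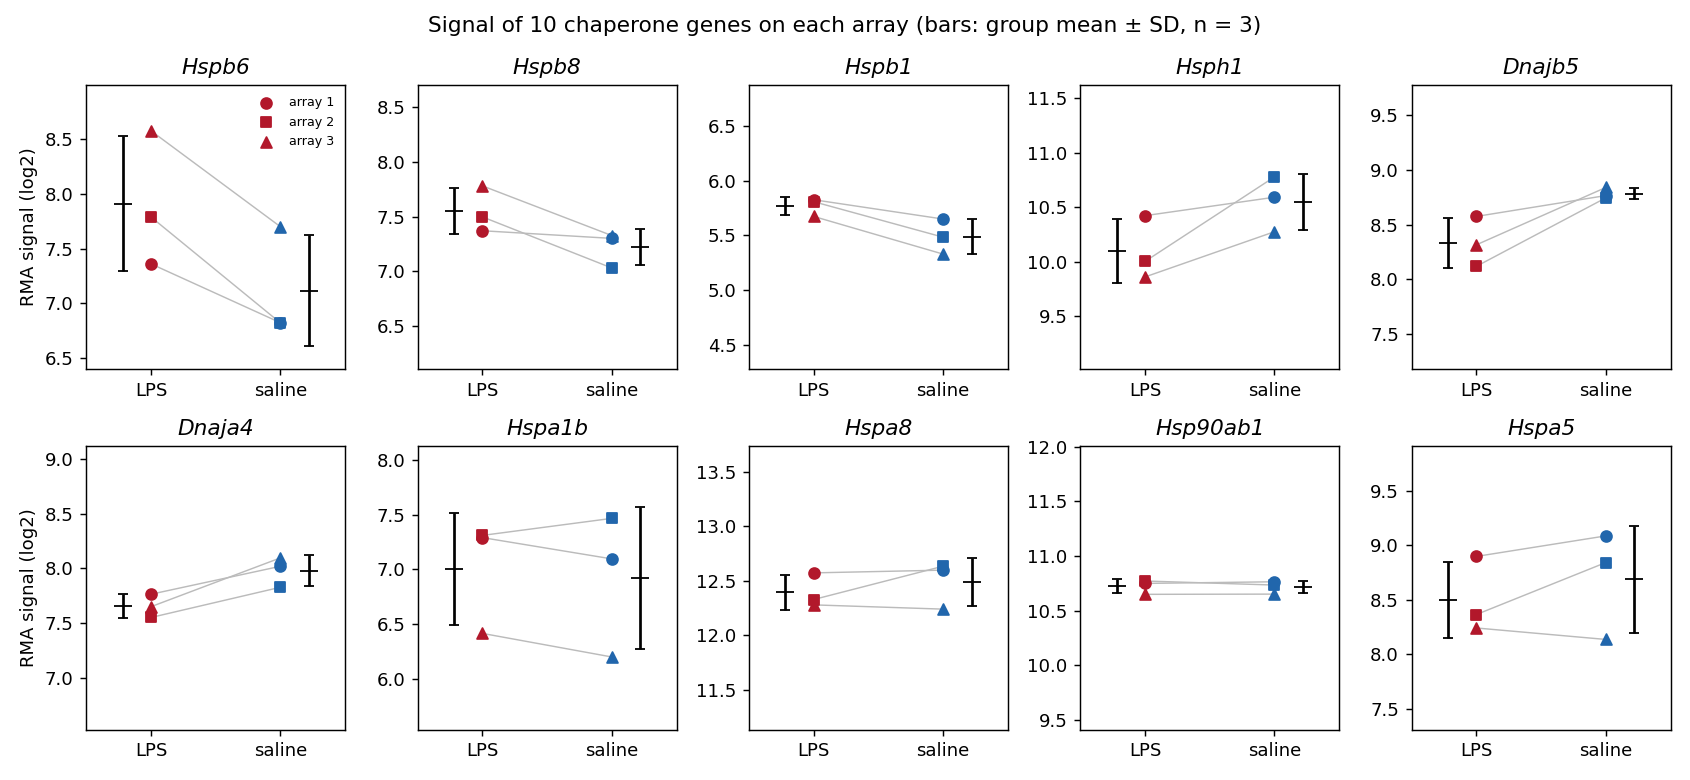
Log2 signal (vertical axis, each panel spanning the same number of log2 units) of 10 chaperone genes on each LPS array (red, left) and saline array (blue, right), with grey lines joining arrays of the same number and black bars for the group mean ± SD (n = 3). Hspb8 and Hspb1 lie higher and Dnajb5 and Dnaja4 lower on all LPS arrays, while the Hspa1b values follow the array number, with both arrays numbered 3 lowest.

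The HSP110 family, the exchange factors of HSP70, was negative in all 3 genes. Hsph1, a stress-inducible member that is abundant in neurons, gave 10.42, 10.003 and 9.86 in LPS 1 to 3 and 10.59, 10.78 and 10.28 in saline 1 to 3. LPS 1 lay above saline 3, so the groups overlapped, but each LPS array lay below the saline array of its number, by 0.17, 0.78 and 0.41. The difference was -0.45 ± 0.21 (SE, unadjusted p = 0.0602), and with the replicate block the unadjusted p was 0.0224 and the adjusted p 0.768 (limma). Hspa4 differed by -0.17 ± 0.28 and Hspa4l by -0.11 ± 0.19. Without LPS 3 those of Hspa4 and Hspa4l were 0.07 and 0.03, so only Hsph1 stayed negative there, and the median of the 3 genes was 0.03.

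The HSP70 family had 6 of 11 genes positive, a median of 0.02 and a range from -0.19 to 0.11. The median rests on saline 3: it was -0.22 without that array. The stress-inducible HSP70 genes Hspa1a and Hspa1b are neighbours of nearly the same sequence, so array probes may not separate them. Hspa1b gave 7.29, 7.31 and 6.42 in LPS 1 to 3, against 7.10, 7.47 and 6.20 in saline 1 to 3. Hspa1a gave 6.94, 6.45 and 5.90 in LPS 1 to 3, against 6.75, 6.78 and 5.97 in saline 1 to 3. In both genes the arrays numbered 3 were lowest in both treatments, and LPS and saline interleaved. The differences were 0.09 ± 0.36 (SE) for Hspa1b and -0.07 ± 0.31 for Hspa1a, and their 95% intervals ran from -0.74 to 0.91 and from -0.78 to 0.64. Without LPS 3 that of Hspa1a was 0.19, and without saline 3 that of Hspa1b was -0.28. A second Hspa1a cluster of low signal differed by -0.19 ± 0.17 (SE).

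Hspa8, the constitutive HSP70 of the cytosol that also strips clathrin from vesicles, gave 12.57, 12.33 and 12.28 in LPS arrays and 12.60, 12.63 and 12.24 in saline arrays. Its difference was -0.10 ± 0.18 (SE), with LPS 2 the array furthest from the saline array of its number (-0.30). Hspa9, the HSP70 of mitochondria, differed by 0.09 ± 0.26, and by -0.19 without saline 3. Hspa2, which is needed in sperm formation, differed by 0.02 ± 0.26, and Hspa1l, also a testis gene, by -0.02 ± 0.18. The distant HSP70 relatives Hspa12a and Hspa12b differed by -0.18 ± 0.18 and 0.11 ± 0.17, and Hspa12b, known from endothelium, was the highest of the family. Hspa13, an ER-bound relative, differed by 0.03 ± 0.16, and Hspa14, which sits at the ribosome with Dnajc2, by 0.06 ± 0.15.

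Of the HSP90 genes, Hsp90aa1, the stress-inducible cytosolic copy, gave 8.36, 8.10 and 8.04 in LPS 1 to 3 and 8.34, 8.41 and 7.95 in saline 1 to 3. LPS and saline interleaved, and the difference was -0.07 ± 0.18 (SE), or -0.22 ± 0.26 in its second cluster. Hsp90ab1 is given above. The mitochondrial co-chaperonin Hspe1, the lid of the folding chamber formed by HSP60, gave 7.21, 7.24 and 7.55 in LPS arrays and 7.58, 7.09 and 8.04 in saline arrays. It differed by -0.24 ± 0.25 (SE), or by -0.005 without saline 3, so its size rests on that array.

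Among DNAJA and DNAJB genes, most of them HSP70 partners in the cytosol, the lowest values were those of Dnajb5 and Dnaja4. Dnajb5, a relative of the stress-inducible Dnajb1, gave 8.58, 8.12 and 8.32 in LPS 1 to 3, against 8.77, 8.75 and 8.84 in saline 1 to 3. Every LPS array lay below every saline array, and the saline arrays spread over less than the LPS arrays (SD 0.05 in saline, 0.23 after LPS). Its difference of -0.45 ± 0.17 (SE), or 1.36-fold lower, had the only unadjusted p under 0.05 among the 71 genes (0.0272). It did not pass after adjustment. Dnaja4, a cytosolic HSP40, gave 7.76, 7.55 and 7.65 in LPS 1 to 3 and 8.02, 7.83 and 8.10 in saline 1 to 3. Its groups did not overlap, and the difference was -0.33 ± 0.16 (SE, unadjusted p = 0.067). In the authors' deposited table these were the 2 chaperone genes with an unadjusted p-value under 0.05, and neither passed there after adjustment (authors' adjusted p = 0.999886 for both). The authors' p-values were computed from the same arrays, and 99.997% of them lay within 0.001 of the unmoderated equal-variance test. They are therefore not separate evidence for these 2 genes.

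Dnaja1, the main HSP40 partner of Hspa8, differed by 0.002 ± 0.186 (SE), with 8.16, 8.12 and 7.79 in LPS arrays and 8.16, 8.15 and 7.75 in saline arrays. Array for array the values were nearly the same, and both arrays numbered 3 were low. Dnaja2, a like partner, differed by -0.08 ± 0.25, and Dnaja3, the mitochondrial HSP40, by -0.20 ± 0.15. Dnajb1, the HSP40 that heat induces, gave 8.75, 8.75 and 9.33 in LPS arrays and 8.995, 8.83 and 9.33 in saline arrays, a difference of -0.11 ± 0.22 (SE). That cluster also covers Gipc1, and a Dnajb1 cluster without it differed by -0.07 ± 0.19 and was lowest, not highest, in the arrays numbered 3. Of the aggregation suppressors, Dnajb6 differed by 0.007 ± 0.143 and Dnajb2, a neuronal member, by -0.28 ± 0.17. The testis genes Dnajb3, Dnajb7, Dnajb8 and Dnajb13 differed by -0.06 to 0.10, and the highest, Dnajb7, had LPS arrays on both sides of all saline arrays.

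The 28 DNAJC genes, which carry the J domain on otherwise unlike proteins, were split evenly, with 14 positive and 14 negative and a median of -0.001. Their differences ran from -0.25 to 0.13. The lowest was Dnajc2, the ribosome-bound partner of Hspa14 that meets nascent chains, with 7.78, 7.58 and 7.91 in LPS arrays and 7.90, 7.98 and 8.15 in saline arrays. LPS 3 lay above saline 1, and the difference was -0.25 ± 0.16 (SE). Dnajc21, a factor in making the large ribosomal subunit, differed by -0.21 ± 0.21. The highest was Dnajc5g, a testis relative of cysteine string protein, at 0.13 ± 0.27 and a low signal. Of the vesicle members, Dnajc5, the cysteine string protein of synaptic vesicles, differed by -0.02 ± 0.14. Dnajc6, the auxilin that recruits Hspa8 to clathrin coats, differed by 0.001 ± 0.171, and Dnajc13, an endosome protein, by -0.13 ± 0.17. The mitochondrial import factors Dnajc15 and Dnajc19 differed by -0.12 ± 0.18 and -0.12 ± 0.26, both with saline 3 as the highest array.

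The ER chaperones, drawn from several families after their values were seen, were split, with 5 of 10 positive, a median of -0.01 and a range from -0.22 to 0.09. Hspa5, the ER HSP70 known as BiP that holds the stress sensors of the ER inactive, gave 8.90, 8.37 and 8.24 in LPS 1 to 3, against 9.09, 8.84 and 8.14 in saline 1 to 3. LPS lay lower in the pairs numbered 1 and 2 and higher in the pair numbered 3, and the difference was -0.19 ± 0.28 (SE). Hsp90b1, the ER HSP90 (GRP94) that folds Toll-like receptors and integrins, gave 10.28, 10.04 and 9.99 in LPS 1 to 3 and 10.60, 10.32 and 10.02 in saline 1 to 3. Each LPS array lay below the saline array of its number, but LPS 1 lay above saline 3, and the difference was -0.21 ± 0.19 (SE). Dnajb11, a BiP partner in the ER lumen, differed by -0.22 ± 0.16, and Dnajc3, the ER protein first known as an inhibitor of the kinase PKR, by -0.04 ± 0.21. Dnajb9, an HSP40 strongly induced by the unfolded protein response, differed by 0.09 ± 0.25, with 7.43, 7.77 and 8.26 in LPS arrays and 7.65, 7.50 and 8.05 in saline arrays. Leaving out 1 array gave -0.46 to 0.01 for Hspa5 and -0.36 to -0.07 for Hsp90b1, whose value was smallest without saline 1.

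Promoter sequences were searched for exact matches to the stress elements. RefSeq windows (GRCm38.p6) from 250 bases before to 50 after a gene's start matched 57 of the 71 genes by symbol. They were searched on both strands for heat shock elements, in which GAA and TTC units alternate with any 2 bases (NN) between them. Elements of 3 units (starting with GAA or with TTC) contain those of 2 units, so the searches overlap. The ER stress element was CCAAT and CCACG with any 9 bases between them. Elements of 3 units were found in 3 of the 57 genes (5.26%), against 0.603% of all windows and 0.662% of all genes. Elements of 2 units were found in 15 (26.3%), against 15.1% of windows and 17.0% of genes, and ER stress elements in 3 (5.26%), against 0.119% of windows and 0.137% of genes. The unfolded protein response element, TGACG followed at once by TGG, was found in 1 gene, Dnajc25 (1.75%), against 0.676% of windows. A match describes these letters and is not a shown binding site. A gene without a match is not shown to lack the element. Only exact letters inside these windows were searched, and not all of the 71 genes had a window.

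The following stretches before the start show the heat shock elements (GAA and TTC units in capitals) of members described above, none of which passed the test, each 5′ to 3′ on the strand of its gene. They lie at chr5:149636337-149636399 on the minus strand for Hsph1, chr1:55088029-55088106 on the plus strand for Hspe1, chr5:29735822-29735894 on the plus strand for Dnajb6, chr5:135887772-135887859 on the plus strand for Hspb1, and chr4:40722314-40722381 on the plus strand for Dnaja1. The Hspa1a stretch is at chr17:34972223-34972290 and the Hspa1b stretch at chr17:34959305-34959372, both on the minus strand.
Hsph1: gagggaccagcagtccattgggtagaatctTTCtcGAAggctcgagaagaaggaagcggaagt
Hspe1: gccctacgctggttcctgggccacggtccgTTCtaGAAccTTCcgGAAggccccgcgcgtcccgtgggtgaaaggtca
Dnajb6: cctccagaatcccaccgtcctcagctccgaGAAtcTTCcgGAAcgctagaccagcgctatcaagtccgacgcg
Hspb1: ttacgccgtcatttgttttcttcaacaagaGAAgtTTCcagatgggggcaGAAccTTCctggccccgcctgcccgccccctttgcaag
Dnaja1: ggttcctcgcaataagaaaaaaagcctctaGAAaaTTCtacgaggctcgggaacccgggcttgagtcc
Hspa1a: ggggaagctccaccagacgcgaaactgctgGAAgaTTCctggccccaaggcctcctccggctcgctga
Hspa1b: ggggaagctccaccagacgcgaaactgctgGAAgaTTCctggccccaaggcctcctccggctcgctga

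Hspa1a and Hspa1b shared 247 of the 250 bases before their starts, including the whole stretch shown. The Hspe1 promoter held 4 units in a row, which counts as 2 overlapping elements of 3 units. The element of 3 units of Hsph1 lies after its start and is not printed. Of the 15 genes with an element of 2 units, 9 were positive and 6 negative after LPS, with a median difference of 0.007. Among them Hspb1 and Hspb6 were positive and Hsph1 and Dnaja4 negative, so genes that carry this element stood on both sides of 0.

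The ER stress elements (capitals) stood in Hspa5 at chr2:34771995-34772073 on the plus strand, Hsp90b1 at chr10:86705503-86705686 on the minus strand and Dnajc3 at chr14:118937797-118937875 on the plus strand. These 3 genes are shown because they carry the element that the unfolded protein response uses and had negative differences (-0.19, -0.21 and -0.04), none of which passed. Under alternatives Hspa5 reached 0.01 and Dnajc3 0.13, while Hsp90b1 stayed negative.
Hspa5: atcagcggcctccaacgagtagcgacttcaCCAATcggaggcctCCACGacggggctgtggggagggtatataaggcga
Hsp90b1: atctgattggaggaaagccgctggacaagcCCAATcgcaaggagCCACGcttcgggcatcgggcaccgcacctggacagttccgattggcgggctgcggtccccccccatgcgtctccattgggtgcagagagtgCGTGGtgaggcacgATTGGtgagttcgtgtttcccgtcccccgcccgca
Dnajc3: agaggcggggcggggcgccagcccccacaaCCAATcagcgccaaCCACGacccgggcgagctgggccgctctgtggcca

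Among genes that work with these chaperones none passed either, and most lay lower after LPS. Of 77 genes on 6 lists of partners 74 were measured, 0 passed the limma test over all clusters (0 at an unadjusted p under 0.05), and 54 were negative (73.0%, against 50.4% of all clusters and 57.2% of those with a mean log2 signal of at least 6). Groups did not overlap in 5 genes in the lower direction (6.76%, against 3.1% of all clusters) and in 0 in the higher direction. The share of 73.0% was not computed under the alternatives. Not every list leaned lower: of the 5 heat shock factors 2 were negative and 3 positive. Hsf1, the gene of heat shock factor 1, gave 7.80, 7.58 and 8.25 in LPS arrays and 7.67, 7.71 and 8.56 in saline arrays, a difference of -0.11 ± 0.28 (SE). Co-chaperones of HSP70 and HSP90 were negative in 21 of 23 genes with a median of -0.10. The lowest, Chordc1, an HSP90 partner, gave 9.06, 8.38 and 7.81 in LPS 1 to 3 and 9.53, 9.27 and 8.43 in saline 1 to 3. Each LPS array lay below the saline array of its number, yet LPS 1 lay above saline 3, and the difference was -0.66 ± 0.37 (SE). It was -0.36 without LPS 3 and -0.98 without LPS 1. Bag3, the partner of Hspb8, was the highest at 0.32 ± 0.27, but 0.04 without saline 3.

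The cytosolic chaperonin TRiC and prefoldin list was negative in 11 of 13 genes (median -0.06), with Cct4 at -0.22 ± 0.19 (SE) and Pfdn4 at -0.14 ± 0.15. ER folding and unfolded protein response genes were negative in 14 of 22 (median -0.06), and the disulfide isomerases Pdia6 and Pdia4 were lowest at -0.32 ± 0.25 and -0.25 ± 0.19. Mitochondrial folding genes were negative in 5 of 8 (median -0.11), with the protease gene Lonp1 at -0.18 ± 0.15 and Clpx, an unfoldase, at 0.14 ± 0.15. The lens and glial small heat shock protein Cryab, outside the symbol rule, differed by -0.40 ± 0.38, or by -0.009 without saline 3 and -0.71 without LPS 3, and the collagen chaperone Serpinh1 by 0.14 ± 0.24.

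Over the 71 chaperone genes, both arrays numbered 3 lay above the other arrays of their group in 20 (28.2%) and below in 21 (29.6%). Over all clusters these shares were 42.7% and 11.6%. Over clusters with a mean log2 signal of at least 6 they were 51.3% and 17.2%. The families differed in direction. In HSP70 genes, both arrays numbered 3 lay below the other arrays of their group in 7 of 11, and they did so in all 3 HSP110 and all 3 HSP90 genes, against 11.6% of all clusters. In DNAJC genes they lay above the others in 10 of 28 (35.7%) and below in 3 (10.7%), and over all clusters above in 42.7%. Hspa1b had the lowest offset: LPS 3 minus the mean of LPS 1 and 2 was -0.89, and saline 3 minus that of saline 1 and 2 was -1.08. For Hspa4 the offset was -0.73 in both treatments. Dnajc14, a chaperone that carries receptors out of the ER, was higher by 0.92 in LPS 3 and 0.99 in saline 3, and Dnajc27, which carries a GTPase-like domain, by 0.75 and 1.02. All clusters tested were higher by a median of 0.20 in LPS 3 and 0.17 in saline 3. The labels do not say what the number stands for, and the cause of these offsets was not tested.

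**Figure D3:**
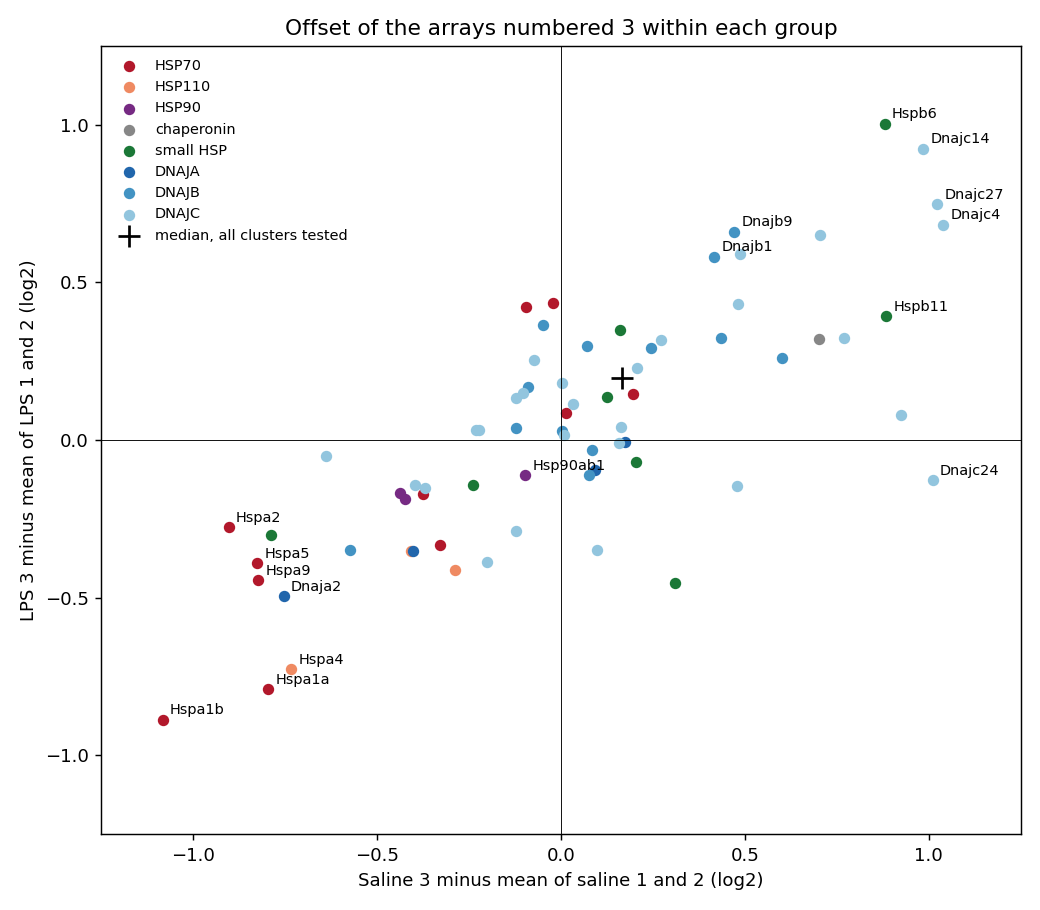
Offset of the array numbered 3 from the mean of the other 2 arrays of its group, for saline (horizontal axis) and LPS (vertical axis), both in log2 units, with 1 point per chaperone gene coloured by family and a cross for the median over all clusters tested. HSP70, HSP110 and HSP90 genes such as Hspa1b, Hspa1a and Hspa4 lie low in both groups, and Hspb6, Dnajc14, Dnajc27 and Dnajc4 lie high in both.

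Arrays of the same number are called pairs here, although the pairing is clear for number 3 only (see the processing section). Taken within numbers, LPS was higher in all 3 pairs for 4 genes (5.63%), against 13.1% of all clusters. It was lower in all 3 for 8 genes (11.3%), against 13.5%. The 4 higher genes were Hspb1, Hspb6, Hspb8 and Dnajc11, the last a mitochondrial membrane protein whose pairs differed by 0.03 at most. The 8 lower genes were Hsph1, Hspa4, Hspa12a, Hsp90b1, Dnaja4, Dnajb5, Dnajc2 and Hspb2. The pair numbered 2 stood lowest in several families: its median difference was -0.20 in HSP70 genes, -0.32 in HSP110, -0.28 in HSP90 and -0.26 in DNAJA. The pair numbered 1 gave -0.02, -0.04, -0.01 and -0.04 in these families, and the pair numbered 3 gave 0.10, -0.19, -0.002 and -0.14. The small heat shock proteins had positive medians in all 3 pairs, at 0.12, 0.25 and 0.16. The pair numbered 2 was also lowest in DNAJB genes (-0.175). It was highest in the small heat shock proteins, in DNAJC genes (0.017) and in Hspe1 (0.144). Its median over all clusters tested was -0.016.

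**Figure D4:**
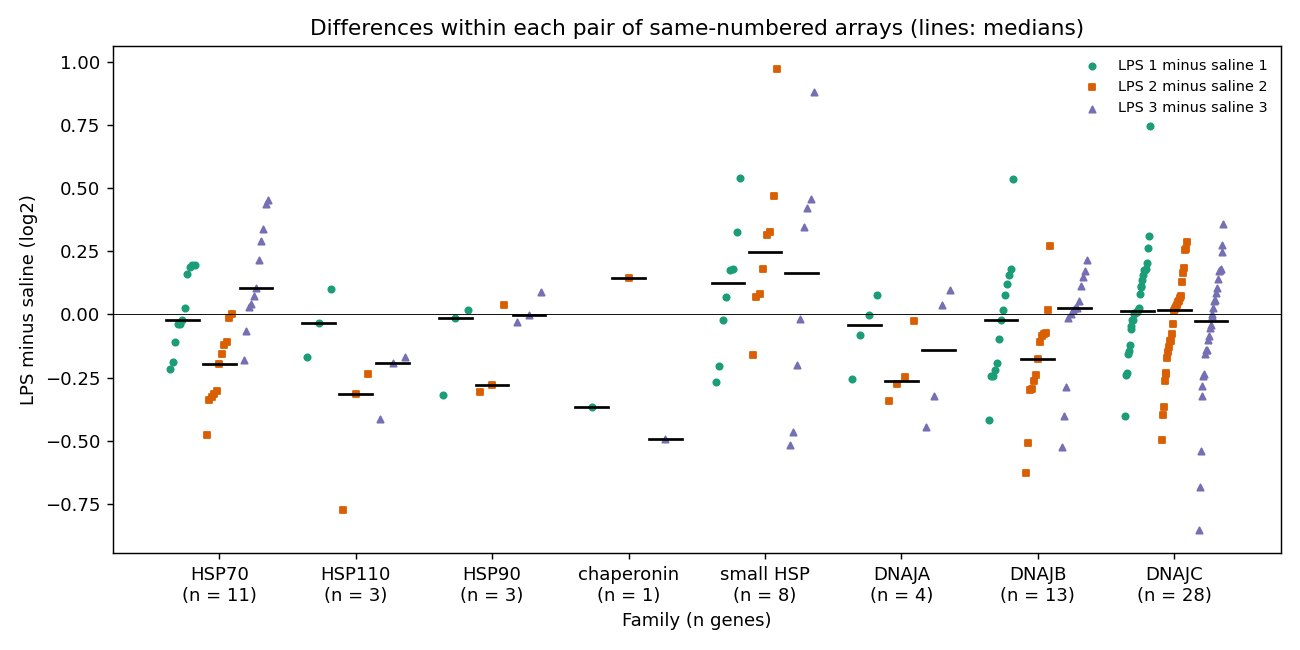
Difference in log2 units (vertical axis) between the LPS and the saline array of the same number, for each chaperone gene by family (horizontal axis), with 1 colour and marker per number and black lines for the median. The pair numbered 2 lies lowest in the HSP70, HSP110, HSP90 and DNAJA families, and the small heat shock proteins have medians above 0 in each pair. The pairing by number is clear for number 3 only.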

How the data were processed

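The deposited value table holds log2 signals per transcript cluster and array, which the authors computed by RMA (Affymetrix Expression Console is named in the submitters' processing notes). RMA compresses folds of dim clusters, and the number of arrays limits the precision. The authors' deposited comparison table, for which the submitters' processing notes name Transcriptome Analysis Console 3.0, gives group averages in log2, a signed linear fold and p-values. It supplied the gene symbols and, for 2 genes, the authors' p-values. The build behind the authors' clusters is not named in the sources used here, and promoter windows are RefSeq's for GRCm38.p6. Differences are LPS minus saline from limma 3.58.1 in R 4.3.3 (lmFit, eBayes, group only), two-sided, with Benjamini-Hochberg adjustment over the 34472 clusters of the comparison table and a threshold of 0.05. On data simulated from these arrays with 34472 clusters, 100 clusters were changed by 3 log2 units and 100 by 1 log2 unit. Of these, 99% and 36% passed. The adjusted threshold is easier to pass where many clusters are changed, and in the real data 1 cluster passed. The simulated noise was independent between clusters and arrays, without the shared offset of the arrays numbered 3. Of unchanged simulated clusters 5.56% had an unadjusted limma p under 0.05, against 1.49% higher and 0.772% lower in the real data. The simulated shares therefore need not hold for the real arrays. SE is limma's moderated standard error and SD is between arrays.

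The symbols, lists and alternatives were chosen with earlier results of these data known. Named chaperone genes were those with an unadjusted p under 0.05, those fixed by role, and the highest and lowest of each family. Named partners were Hsf1 and the 2 genes with the largest absolute difference on each partner list, in either direction. They are therefore not always both ends of a list. The remaining chaperone genes and the grouping of ER genes were added after their values were seen. Descriptions of 9 of the 71 clusters name more than 1 gene or pseudogene. Levels are not compared between genes, since probes differ. The labels number arrays 1 to 3 in both groups. Deviations from the group means correlated by 0.27, 0.12 and 0.56 across clusters for numbers 1, 2 and 3. All were over 0.1, the criterion for taking the numbers as pairs, so a replicate block was run as an alternative. Deviations cancel within a group, so the offset shared by both arrays numbered 3 also moves arrays 1 and 2 of both groups alike. Passing the criterion therefore does not show pairing for numbers 1 and 2. LPS 1 with saline 2 (0.41) correlated more than the matched numbers 1 and 2, and LPS 2 with saline 1 (0.14) more than the matched number 2 only. The pairing is therefore clear for number 3 only.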

Additional observations from a re-analysis of the deposited data

How the results depend on the processing

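No chaperone gene passed the adjusted threshold under any of the alternatives run, and the median over the chaperone genes stayed between -0.051 and -0.004. The clusters that passed among all those tested numbered 1. Leaving out 1 array gave 0 to 12, with 12 without LPS 1 and 0 without LPS 2, LPS 3, saline 1 or saline 2. The count was 2 without both arrays numbered 3, 22 with array weights, 0 over all clusters of the value table and 0 with the unmoderated equal-variance test. With the replicate number as a block it was 3, and that pairing changed no call of a chaperone gene. The mean of all clusters of a symbol gives no such count.

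Of all 71 chaperone genes, 22 kept their direction under every alternative run. Of the differences named by rule, partners included, 20 kept it and 16 did not. Others printed in the report that turned under some alternative include Hspa4, Hspa2, Hspa13, Hspb3, Hspb9, Hspb11, Dnaja2, Dnajc3, Dnajc15 and Dnajc19. Leaving out 1 array gave -0.335 to 0.194 for Hspa1a, -0.276 to 0.381 for Hspa1b, -0.462 to 0.012 for Hspa5, -0.189 to 0.244 for Hspa9, -0.031 to 0.185 for Hspa12b and -0.259 to 0.028 for Hspa4l. It gave -0.208 to 0.019 for Hsp90aa1, -0.026 to 0.044 for Hsp90ab1, -0.133 to 0.119 for Dnaja1, -0.301 to 0.032 for Dnajb1, -0.034 to 0.342 for Dnajb7, -0.133 to 0.284 for Dnajb9 and -0.094 to 0.415 for Dnajc5g. Among partners it gave -0.295 to 0.185 for Hsf1, -0.19 to 0.266 for Hsf5 and -0.114 to 0.296 for Serpinh1. Without both arrays numbered 3 the differences were -0.041 for Hspa9, -0.016 for Dnaja1, -0.063 for Hspa12b, -0.047 for Hsf5 and -0.011 for Serpinh1. Array weights gave -0.021 for Hspa9, -0.03 for Dnaja1 and -0.026 for Hspa12b, and centring on array medians gave -0.028 for Hsp90ab1 and -0.034 for Dnaja1. The cause of these turns was not tested. With 3 pools a group, differences inside the stated intervals are not resolved, and dim clusters near background have compressed differences.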
